A study of Mus musculus with 4 samples.

Results

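The genes described here are the DNA replication genes, a named set of 38 mouse genes whose products license, unwind, copy and repackage DNA or supply its building blocks. All 38 were found by symbol among the 31053 gene IDs of each library, all 38 had UMIs in each of the 4 libraries, and all 38 passed the filter on low sums in the gate comparisons. The cells were CD4+ T cells taken from the lamina propria of the small intestine, the tissue under the gut epithelium, of wildtype C57Bl/6 mice, and sorted by flow as living CD45+CD3+CD4+ cells (7AAD-). No treatment, other genotype or time point was compared, and the age of the mice and the number of mice per library are not given in the sources used here, so p-values measure only the spread between these libraries.

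Within each library every cell was put in 1 of 5 gates by its own transcripts, by first match. A cell with at least 1 UMI of Foxp3, the factor that defines regulatory T cells, went to the Foxp3 gate. A cell with at least 1 UMI of Il17a, a cytokine of Th17 cells, went to the Il17a gate, and then 1 with at least 1 UMI of Ifng, the macrophage-activating cytokine of Th1 cells, to the Ifng gate. A cell with at least 10 UMIs of Gzma, a granzyme of cytotoxic cells, went to the Gzma gate, and the remaining cells are called the rest. The gates held 1506, 574, 6446, 1671 and 10555 of the 20752 cells with 2000 or more UMIs, at median depths of 4537.5, 5324, 4007, 3621 and 3805 UMIs in that order. A gate that asks for 1 UMI takes in a deep cell more readily than a shallow one, so comparisons are also given at equal depth.

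DNA replication starts when the origin recognition complex and Cdc6 load the ring of Mcm2 to Mcm7 onto DNA. Cyclin E with its kinase then helps to turn the ring into a running helicase, together with Cdc45 and the GINS complex. The polymerases copy behind it, held on DNA by the sliding clamp Pcna that the Rfc loader places, while the Rpa complex covers the exposed single strand. Many of these genes are switched on at the start of S phase by E2F transcription factors, whereas the genes of mitosis peak later. T cells divide in bursts after they meet antigen, and most cells resident in a tissue are not in S phase at a given moment.

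E2F binding is classically tied to short GC-rich words in the promoters of these genes. In the 250 bases before the start site, 7 of the 31 members found in the RefSeq promoter table (GRCm38.p6) held at least 1 of the words TTTGGCGC, TTTCCCGC, TTTCGCGC and TTTGCCGC on either strand. This was a share of 22.6%, against 1.91% of the 27025 promoters taken from the table. The first listed start site of each gene was used, and not all chromosomes were taken. The CCAAT box word was in 61.3% of the members and 34.5% of all promoters. Either word of the CHR element of mitotic genes, TTTGAA or TTCGAA, was in 16.1% and 17.4%. The promoters of Mcm6 and Mcm5, subunits of the helicase ring, had the most E2F words among the promoters of Mcm2 to Mcm7 and Pcna found in that table, and are shown because both genes are followed through the gates below. Mcm6 lies on the minus strand, with its window at chr1:128359706-128359955, and Mcm5 on the plus strand, at chr8:75109259-75109508, neither of which overlaps an annotated exon. Each sequence reads 5′ to 3′ on the gene's own strand up to the base before the start site, with the E2F words in capitals.
Mcm6: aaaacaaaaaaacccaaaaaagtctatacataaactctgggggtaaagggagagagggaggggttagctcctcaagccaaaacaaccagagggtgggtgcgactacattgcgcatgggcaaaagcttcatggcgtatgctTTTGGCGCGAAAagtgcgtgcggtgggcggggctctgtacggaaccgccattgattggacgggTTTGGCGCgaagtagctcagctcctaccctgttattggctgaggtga
Mcm5: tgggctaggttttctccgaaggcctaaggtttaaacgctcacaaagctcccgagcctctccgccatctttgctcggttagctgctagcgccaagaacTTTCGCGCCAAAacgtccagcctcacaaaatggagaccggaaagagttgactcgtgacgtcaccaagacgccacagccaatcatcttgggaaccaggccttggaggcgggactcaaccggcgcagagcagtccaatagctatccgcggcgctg
Mcm6 held 3 words, of which the first pair overlap, and Mcm5 held 2 overlapping words. The overlapping pair makes the same stretch of 12 bases in both promoters, TTTGGCGCGAAA in Mcm6 and its reverse complement TTTCGCGCCAAA in Mcm5, a stretch found on either strand in 4 of the 27025 promoters. A match of letters describes the sequence and shows no binding.

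The libraries held 5763, 6013, 5669 and 5459 barcodes with 23918884 to 28783972 UMIs each, and pairs of libraries shared 34 to 55 barcodes. After filters 21501 cells were analysed, at median depths of 3630 to 4173.5 UMIs per library. The summed level of the T cell markers Cd3e, Cd3d, Cd3g, Trac and Cd4 lay between 4455 and 5821 CPM (UMIs of a gene scaled to a common total) over all gates and libraries, so T cell transcripts were present throughout. Only 27 cells had at least 5 UMIs of the antigen-presentation gene Cd74 and none of Cd3e, Cd3d, Cd3g or Trac, too few to measure a background of free RNA.

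Over all cells the 38 members together made up 1741, 1674, 1579.7 and 1634 CPM in libraries 1 to 4, a mean of 1657 ± 68.0 (SD, n = 4 libraries). The 4 libraries thus differed little in the sum. These levels count 5′ ends of transcripts per gene and are not divided by length, so they are compared between cells and not between genes. In the helicase group, Mcm6 stood at 105, 103, 101 and 100.3 CPM and Mcm5 at 46.2, 45.1, 37.6 and 40.4 CPM. Mcm6 was nearly even over the libraries, and Mcm5 was lowest in library 3. Cdc6, the loader of the ring, stood at 5.46, 4.02, 4.34 and 4.92 CPM. Pcna, the sliding clamp, stood at 101, 87.6, 83.8 and 86.1 CPM and was highest in library 1. Rpa1, the large subunit of the single-strand binding complex, stood at 118, 122, 126 and 118 CPM. Prim1, the primase that lays down RNA primers, stood at 18.8, 18.4, 15.5 and 18.6 CPM, and Lig1, the ligase that joins the fragments of the lagging strand, at 47.9, 50.4, 42.6 and 45.7 CPM. Among the genes of nucleotide supply, Rrm2, the S-phase subunit of ribonucleotide reductase, had the widest spread for its level, with 67.0, 51.0, 42.9 and 49.7 CPM, highest in library 1. Dut, which removes dUTP, stood at 140.0, 124, 117 and 128 CPM. Slbp, which binds the ends of histone mRNAs, stood at 177, 170.3, 171 and 176 CPM and varied least of all members, by a factor of 1.04 between its highest and lowest library. Mcm7, Cdc45, Gins2, Rfc2, Rfc4, Rfc5, Pole, Fen1, Lig1, Chaf1a and Ccne2 overlap a counted gene on the opposite strand, and whether reads were counted by strand is not given in the sources used here, so their values are uncertain to that extent. The partners included Tmem258 of Fen1 at 321 ± 7.00 CPM, Eif4a2 of Rfc4 at 213 ± 12.4 CPM, Cops6 of Mcm7 at 121 ± 3.46 CPM, Ufd1 of Cdc45 at 59.6 ± 1.34 CPM and Ubxn6 of Chaf1a at 59.5 ± 4.42 CPM. The cyclin E genes Ccne1 and Ccne2 were low, at 4.0 ± 0.372 and 2.72 ± 0.619 CPM.

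To compare cells at equal depth, every cell with 2000 or more UMIs was thinned to 2000 UMIs at random. At that depth the median cell held 2 of the 38 members, in each of the 5 gates as well as over all cells. The number of members fell off steeply and then had a long tail: 1856 cells held 4 members, 739 held 5, 632 held 8 or more, and the highest cell held 26. A cut at 5 members therefore lies on a slope, and the cut at 8 is given beside it.

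Over all cells 8.57%, 9.42%, 8.5% and 8.5% held 5 or more members in libraries 1 to 4, a mean of 8.75% ± 0.450 (SD, n = 4 libraries). The Il17a gate stood apart, with 15.8%, 17.8%, 20.9% and 22.6% and a mean of 19.3% ± 3.01. Its lowest library was above the highest library of every other gate. The Gzma gate had 9.27%, 11.9%, 13.5% and 9.36%, with a mean of 11% ± 2.07, and the Ifng gate 10.5%, 10.4%, 9.88% and 9.77%, with a mean of 10.1% ± 0.375. Both were above the rest in all 4 libraries. The rest had 7.00%, 8.29%, 7.04% and 6.87%, with a mean of 7.30% ± 0.666. In the Foxp3 gate the share was 5.94%, 8.19%, 4.47% and 8.52%, with a mean of 6.78% ± 1.92, which overlapped the rest. At the stricter cut of 8 members the Il17a gate held 11.1% ± 1.21, against 4.25% ± 1.52 in the Gzma gate, 3.55% ± 0.485 in the Ifng gate, 2.94% ± 1.10 in the Foxp3 gate and 2.12% ± 0.567 in the rest. At the looser cut of 3 members the Il17a gate (41.8% ± 3.84) and the Gzma gate (42.3% ± 2.46) overlapped. At the cut of 5 members libraries of the gates overlapped as well when cells that met more than 1 gate were left out. The Il17a gate then held 10.0% to 21.5% and the Gzma gate 9.27% to 13.5%. Among cells of 3000 to 6000 UMIs the Il17a gate held 7.78% to 13.1% and the Ifng gate 5.84% to 8.72%, again with overlap. No p-value is given for these shares, since they are scores over a chosen set of genes.

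**Figure D1:**
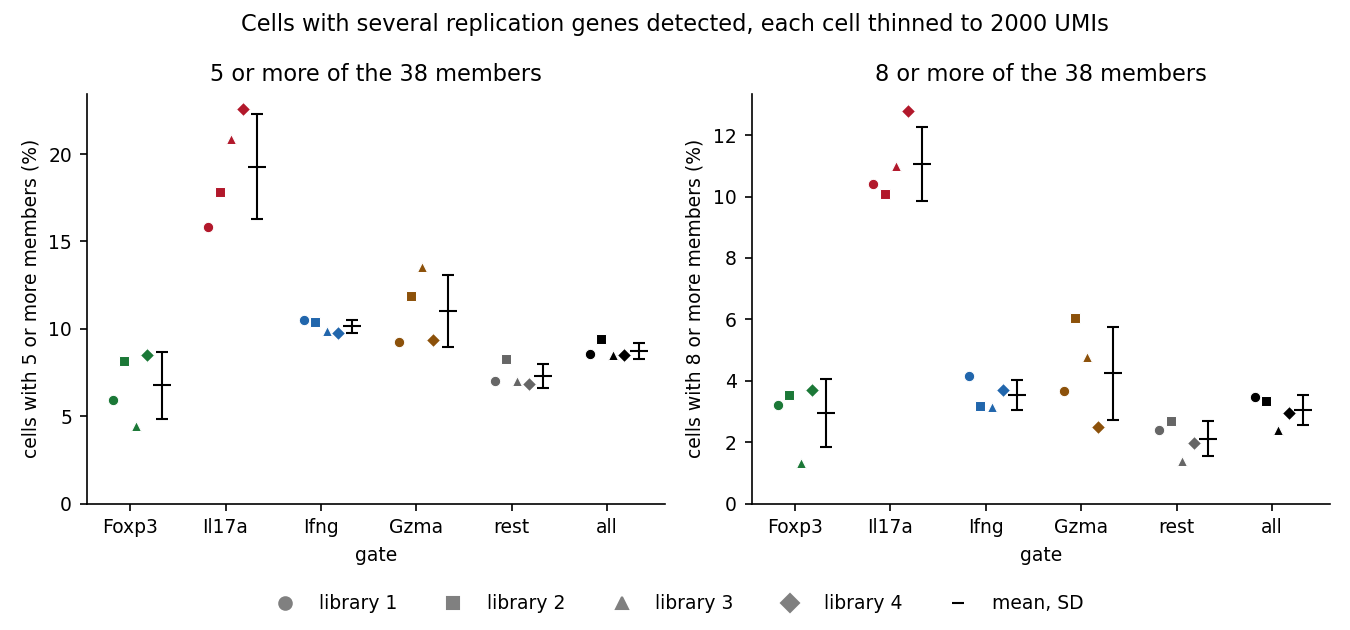
Share of cells (percent, y axis) with 5 or more (left) and 8 or more (right) replication genes detected, by gate, each cell thinned to 2000 UMIs. Points are the 4 libraries and bars the mean and SD; the Il17a gate lies above the other gates in all 4 libraries at both cuts.

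The cells with many members came from several gates. Of the 632 cells with 8 or more members, a mean of 37.0% ± 6.76 per library were in the Ifng gate, 35.1% ± 5.06 in the rest, 11.3% ± 4.0 in the Gzma gate, 9.91% ± 2.65 in the Il17a gate and 6.72% ± 1.95 in the Foxp3 gate. The Il17a gate thus gave about as many of these cells as the Gzma gate, although it held 2.76% of all cells against 8.06%.

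Cells with many members were also the largest by UMI count. Cells with 8 or more members at 2000 UMIs had a median of 9468.5 UMIs before thinning, against 3879 in cells with 0 to 2 members and 4059.5 in cells with 5 to 7. Of the cells with 8 or more, 46.4% had 10000 or more UMIs, against 2.32% of the cells with 0 to 2. Read the other way, the share with 5 or more members at equal depth was 5.77% ± 0.534 (SD, n = 4) in cells of 2000 to 2999 UMIs, 5.47% ± 0.432 at 3000 to 4499, 7.41% ± 2.69 at 4500 to 5999, 16.3% ± 2.28 at 6000 to 9999 and 47.7% ± 4.19 at 10000 or more. The share was similar up to 4499 UMIs and far higher from 6000 UMIs on.

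Gates differed in how many such large cells they held. Cells of 10000 or more UMIs made up 16.9% of the Il17a gate and 11.3% of the Foxp3 gate, against 4.79%, 4.01% and 2.30% of the Ifng gate, the Gzma gate and the rest. Within that class the order of the gates changed: the share with 5 or more members was 63.1% ± 12.5 in the Gzma gate, 55.1% ± 4.22 in the Il17a gate, 53.5% ± 6.12 in the rest, 44.1% ± 3.36 in the Ifng gate and 33.6% ± 4.90 in the Foxp3 gate. Among cells of 3000 to 4499 UMIs, the class with the most cells, the share was 7.47% ± 3.04 in the Il17a gate, 6.63% ± 0.695 in the Ifng gate, 6.14% ± 0.939 in the Gzma gate, 4.91% ± 0.335 in the rest and 3.34% ± 0.708 in the Foxp3 gate. In each of the 5 classes of UMI count the Foxp3 gate had the lowest mean share. The Il17a gate held as few as 12 cells in 1 library and class, which limits the precision of its shares.

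**Figure D2:**
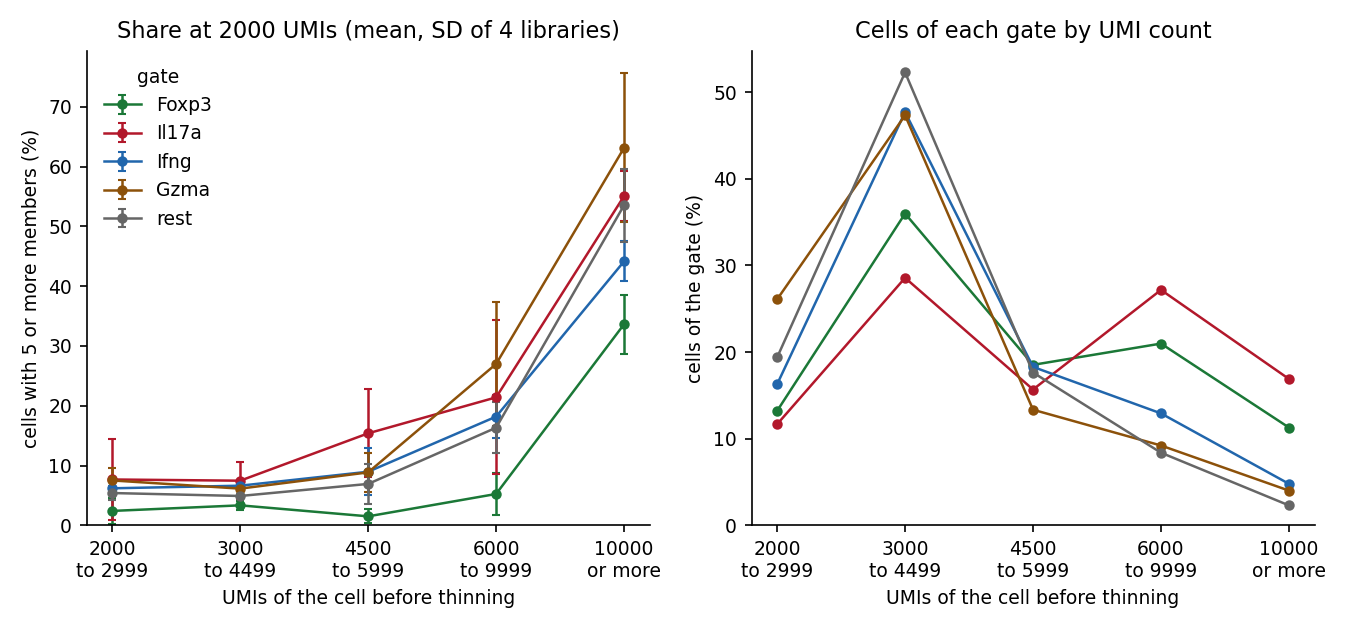
Left, share of cells with 5 or more replication genes at 2000 UMIs (percent, mean and SD of 4 libraries) against the UMI count of the cell before thinning, by gate; right, share of each gate's cells in each class of UMI count. The share climbs above 6000 UMIs in every gate, and the Il17a and Foxp3 gates have the largest shares of their own cells at 10000 or more UMIs.

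The members ranged from genes seen mostly beside other members to genes seen in many cells without them. In cells with 5 or more other members, Cdc6 was detected in 3.90% ± 0.692 (SD, n = 4 libraries), against 0.0755% ± 0.0505 of cells with 0 or 1 other member, a ratio of 51.1 over the pooled cells. Cdc45, the helicase cofactor, gave 4.96% ± 1.29 against 0.117% ± 0.0540, a ratio of 43.3. Both counts in the cells with few members were small. Between libraries the ratio ranged from 25.3 to 141 for Cdc45, and from 28.0 to 47.8 for Cdc6, leaving out 1 library in which no cell with few members held Cdc6. Pooled ratios above 10, given with their range between libraries, were also found for Chaf1a (20.4, 14.5 to 24.6), which deposits histones behind the fork, Rrm2 (17.6, 10.4 to 30.7), Gins1 (14.9, 5.77 to 20.1), Pole (14.4, 10.9 to 24.2), the leading-strand polymerase, Uhrf1 (13.9, 7.72 to 29.3), which helps to copy DNA methylation, and Gins2 (10.2, 6.42 to 14.5). The helicase subunits Mcm5 and Mcm3 stood at 7.65 and 7.42, and Mcm6 and Mcm4 lower, at 3.25 and 2.74.

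At the other end, Rpa1 was detected in 29.0% ± 1.61 against 18.8% ± 0.705, a ratio of 1.54, and Slbp in 43.4% ± 1.02 against 25.2% ± 0.908, a ratio of 1.73. Rpa3, Rpa2 and Rfc1 had ratios of 1.86, 1.89 and 1.93, and Pcna of 2.22. Cells with 5 or more other members held 87.9% ± 4.93 of all Cdc6 UMIs and 73.8% ± 4.91 of the Rrm2 UMIs, but 18.2% ± 2.50 of the Pcna UMIs and 11.7% ± 0.874 of the Rpa1 UMIs. Most UMIs of Pcna and Rpa1 thus came from cells with fewer than 5 other members. The same held for most members, among them Mcm5 and Mcm3. Cells with 5 or more other members held 44.2% ± 7.82 and 42.6% ± 5.81 of their UMIs. These ratios describe the cells and carry no test.

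**Figure D3:**
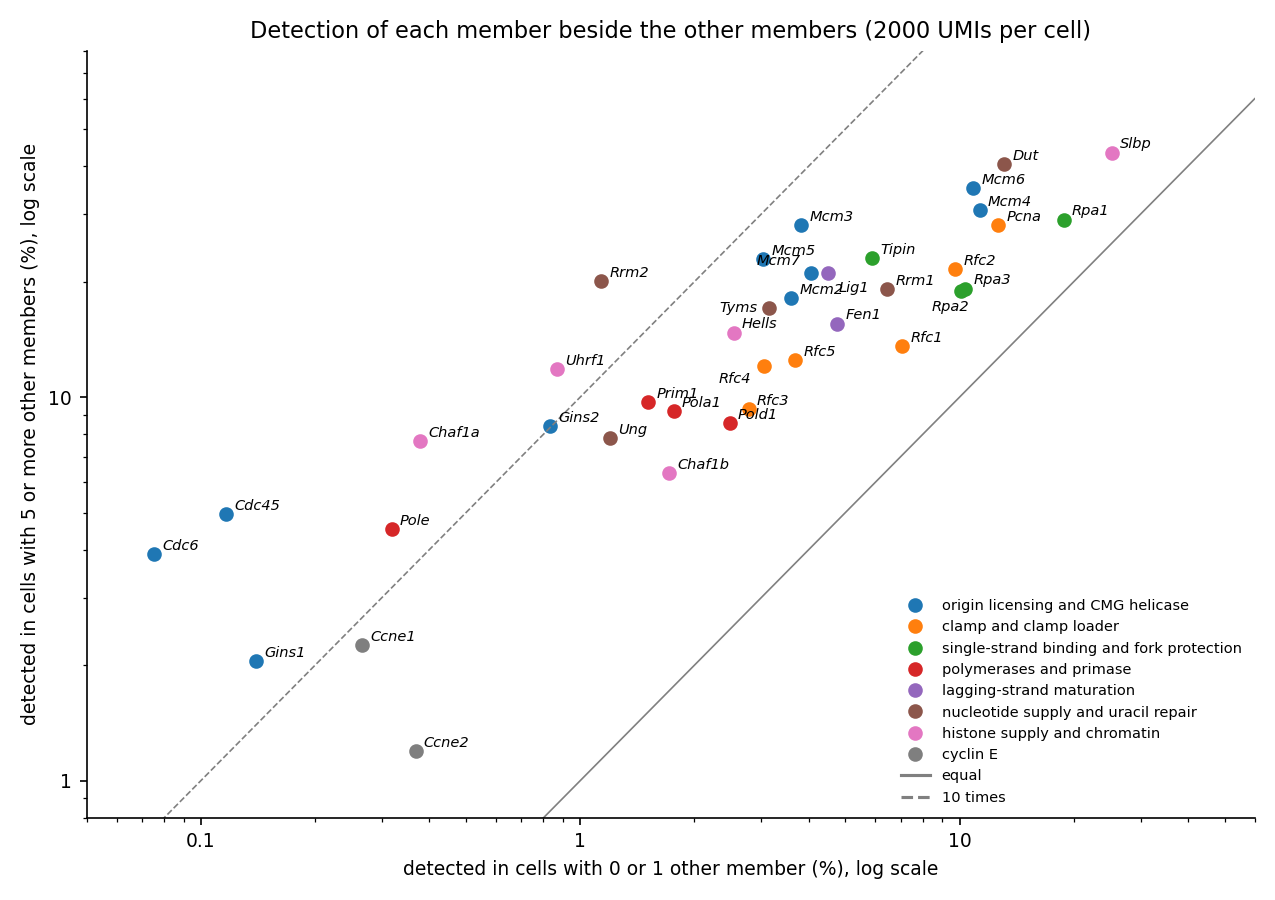
Each point is 1 of the 38 replication genes: percent of cells with at least 1 UMI of it among cells with 0 or 1 other member (x axis, log scale) and among cells with 5 or more other members (y axis, log scale), mean of 4 libraries at 2000 UMIs per cell. Cdc6, Cdc45, Chaf1a, Rrm2, Gins1, Pole, Uhrf1 and Gins2 lie on or above the dashed line of a 10-fold ratio, and Rpa1 and Slbp lie nearest the line of equality.

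The question of the gate comparisons is in which kinds of CD4 T cell the replication genes are read more. UMIs were summed per library and gate, and the sums were compared with edgeR's quasi-likelihood test over 9693 genes, with library as a block. Sums cannot tell more cells in S phase from more transcripts per cell. Against the rest, 37 of 38 members were higher in the Il17a gate, where 15.6% of all genes tested were called higher, and 0 were lower (0 at an unadjusted p under 0.05 and 0 by DESeq2), where 10.7% of all genes were. The median member differed by 1.04 on the log2 scale, against -0.028 over all genes. In 33 of 38 members all 4 Il17a sums lay above all 4 sums of the rest, as they did for 10.1% of all genes. Pole was the member not called, at 7.25, 5.08, 13.8 and 4.10 CPM against 5.33, 5.98, 4.55 and 4.07 CPM in libraries 1 to 4. All gates were set against the same rest, so their values are given side by side. The 4 plasma cell markers summed to 91.1 ± 10.6 CPM in the Il17a gate and 535 ± 261 CPM in the rest. The 4 genes of gamma-delta T cells were higher in sum, at 134 ± 71.9 CPM (91.3 to 241 over the libraries) against 69.8 ± 15.1 CPM (48.1 to 81.0), with Trdv4 at 0 and Trdc under 20 CPM. The 4 stromal or endothelial genes were higher too, at 68.4 ± 12.8 CPM (53.3 to 84.6) against 43.0 ± 0.933 CPM (41.9 to 44.0), all from Pecam1 in the Il17a gate, with Col1a1, Col3a1 and Cdh5 at 0. The part of these lists in the result was not tested.

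All 10 genes of origin licensing and the helicase were higher in the Il17a gate. Mcm3 stood at 159.6, 122, 154 and 147 CPM in the Il17a gate and at 50.3, 53.1, 41.6 and 43.4 CPM in the rest. The groups did not overlap, and the log2 fold change was 1.68 ± 0.14 (SE; edgeR adjusted p = 1.6e-08). Mcm5 stood at 81.6, 93.9, 109 and 90.3 against 36.5, 37.7, 31.1 and 31.5 CPM, with a log2 fold change of 1.44 ± 0.14 (edgeR adjusted p = 1.2e-07). Mcm6 had 168 ± 15.4 against 87.6 ± 5.47 CPM (SD, n = 4), a smaller log2 fold change of 0.98 ± 0.13 (edgeR adjusted p = 5.6e-06). Both genes of the promoters shown above thus passed the test, and the difference between their fold changes was not tested. Cdc6 was read at 12.7, 8.88, 21.7 and 8.21 against 3.08, 2.69, 4.17 and 4.07 CPM (log2 fold change 1.79 ± 0.45, edgeR adjusted p = 0.00442). Cdc45 had 23.0, 16.5, 13.8 and 14.4 against 6.08, 6.77, 5.59 and 4.57 CPM (1.68 ± 0.29 on the log2 scale, edgeR adjusted p = 0.000127), and Gins2 29.0, 31.7, 49.4 and 25.6 against 11.2, 11.7, 9.28 and 10.1 CPM (1.62 ± 0.22, edgeR adjusted p = 7.4e-06). For these low genes the Il17a libraries lay above the rest but spread widely.

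The largest difference of any member was that of Rrm2. It stood at 164, 135, 146 and 197 CPM in the Il17a gate and 45.7, 32.4, 39.6 and 34.4 CPM in the rest, a log2 fold change of 2.11 ± 0.19 (edgeR adjusted p = 3.6e-08). All 5 members of nucleotide supply and uracil repair were higher, among them Dut, at 252 ± 20.6 against 110.1 ± 6.49 CPM, with a log2 fold change of 1.24 ± 0.10 (edgeR adjusted p = 9.6e-09). All 5 of histone supply and chromatin were higher as well. Uhrf1 had 45.9, 58.4, 45.4 and 47.2 against 14.7, 15.7, 12.6 and 11.6 CPM (1.87 ± 0.20 on the log2 scale, edgeR adjusted p = 2.6e-07). Slbp changed less, from 163 ± 4.13 to 212 ± 31.1 CPM, with a log2 fold change of 0.42 ± 0.081 (edgeR adjusted p = 0.000376).

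All 6 members of the clamp and its loader were higher, led by Rfc5 and Pcna. Pcna stood at 149, 138, 166 and 119 against 87.0, 78.1, 75.1 and 76.5 CPM, a log2 fold change of 0.87 ± 0.12 (edgeR adjusted p = 6.6e-06). The 3 genes of the Rpa complex moved little, with log2 fold changes of 0.26 ± 0.078, 0.33 ± 0.11 and 0.37 ± 0.099 for Rpa1, Rpa2 and Rpa3, and Rpa1 in the Il17a gate overlapped the rest (131, 157, 103 and 122 against 111, 116, 117 and 111 CPM). Of the polymerases and primase, 3 of 4 were called, among them Prim1 at 41.1 ± 5.51 against 15.0 ± 1.42 CPM (1.48 ± 0.16 on the log2 scale, edgeR adjusted p = 4.8e-07). Lig1, at 94.8 ± 10.9 against 36.4 ± 3.47 CPM, and the cyclin gene Ccne1, at 8.43 ± 1.70 against 3.31 ± 0.813 CPM, were called higher too (log2 fold changes 1.40 ± 0.16 and 1.47 ± 0.37, edgeR adjusted p = 8.9e-07 and 0.00493).

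Fewer members passed when cells of like depth were compared, with fewer cells or UMIs in each sum. The median log2 fold change, 1.04 over all cells, was smaller as well. Among cells of 3000 to 6000 UMIs 2 of the 29 members tested were called higher (Lig1 and Mcm3; 4.54% of all genes), with a median log2 fold change of 0.11. With each cell thinned to 2000 UMIs, 15 of 31 were higher (6.56% of all genes), with a median of 0.63. When the gates were drawn on the thinned UMIs too, 12 were higher (5.53%), with a median of 0.56. Among cells of more than 6000 UMIs it was 6 of 37 (4.31%), with a median of 0.38. When cells that met more than 1 gate were left out, 16 members were higher (10.4% of all genes), with a median of 0.71. Of all genes called in either direction, the share called higher fell from 59.2% to 47.1% with library size in place of TMM scaling.

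**Figure D4:**
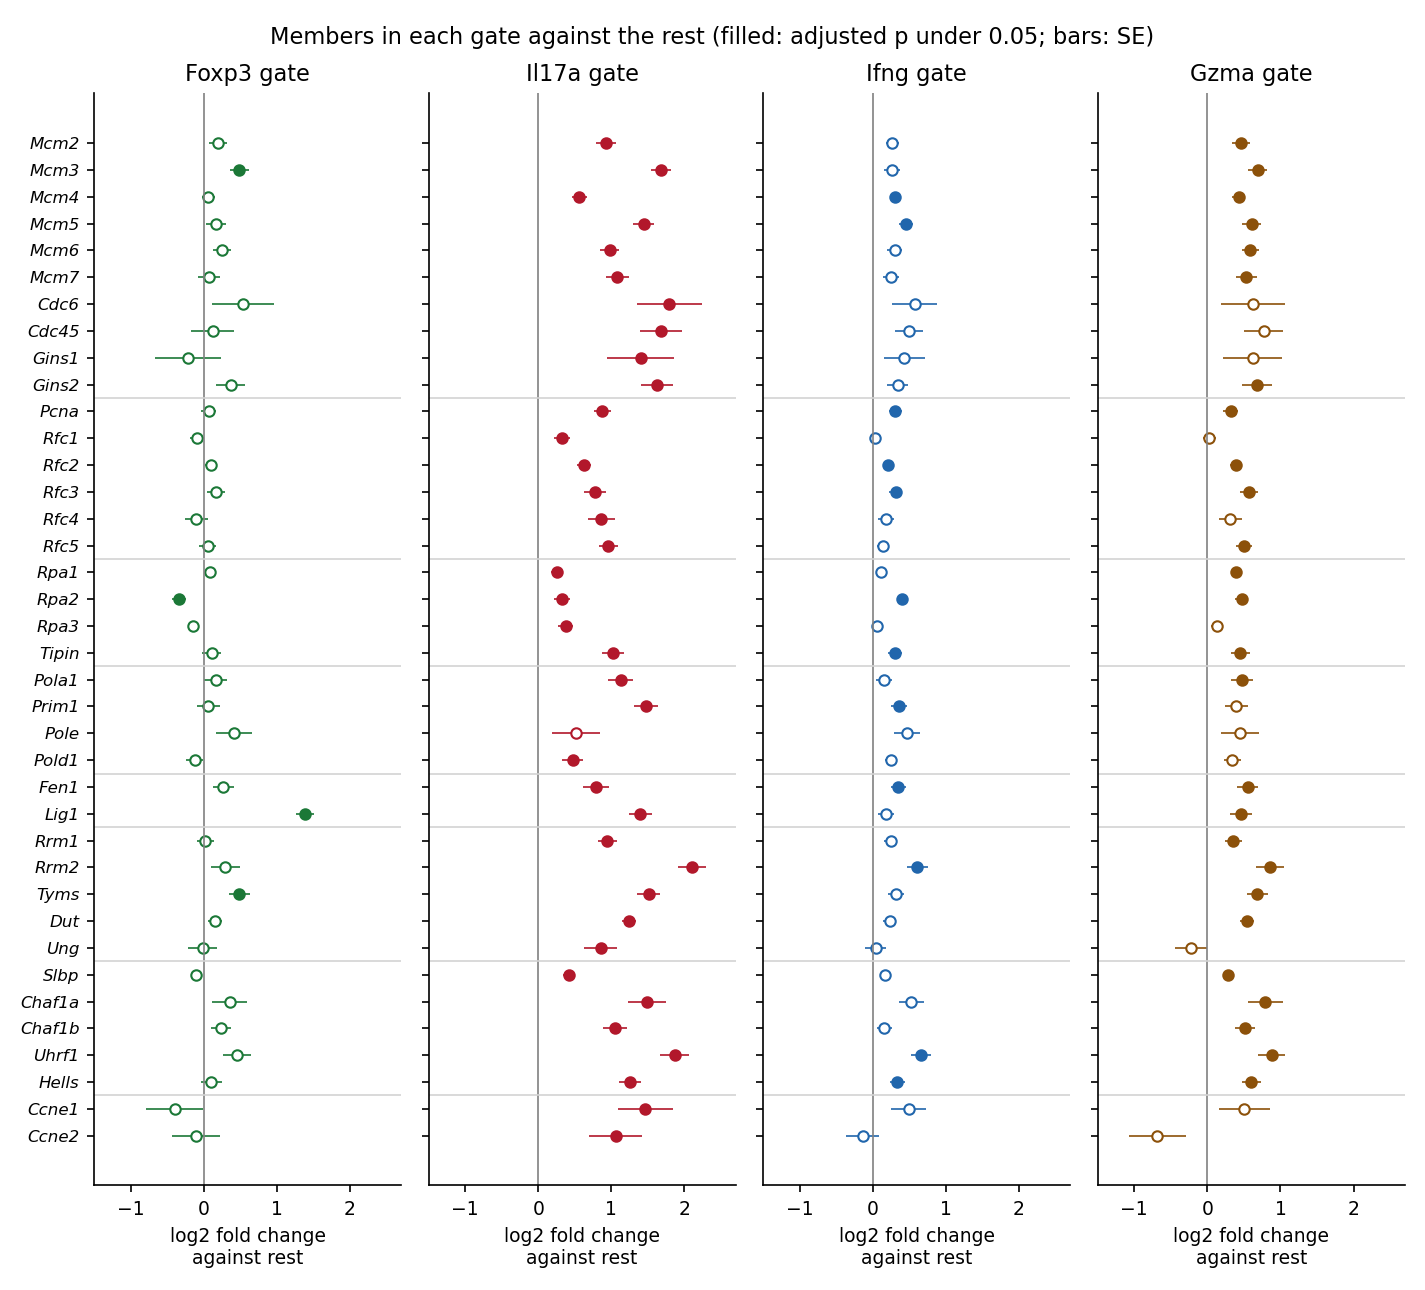
Log2 fold change of each of the 38 replication genes (rows, grouped by role between the grey lines) in each gate against the rest, with its SE; filled points passed edgeR's adjusted p of 0.05. In the Il17a gate 37 points are filled, in the Gzma gate 26, in the Ifng gate 12, and in the Foxp3 gate 4, of which Rpa2 lies below 0.

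Set directly against the Ifng gate, the Il17a gate had 29 of 38 members higher, where 15.1% of all genes were, and 0 lower (0 at an unadjusted p under 0.05, 0 by DESeq2), where 11% of all genes were. The median member differed by 0.83 on the log2 scale, against -0.019 over all genes, and in 28 members all 4 Il17a sums lay above all 4 Ifng sums, as they did for 8.95% of all genes. Mcm3 stood at 63.1, 54.1, 49.4 and 60.1 CPM in the Ifng gate, below all Il17a libraries given above, with a log2 fold change of 1.42 ± 0.14 (edgeR adjusted p = 1.1e-07). Rrm2 stood at 80.4, 58.6, 40.3 and 56.2 CPM, with a log2 fold change of 1.5 ± 0.18 (edgeR adjusted p = 2e-06). Gins2 had 33.9 ± 10.6 against 13.5 ± 2.39 CPM, and Cdc6 12.9 ± 6.22 against 5.25 ± 1.94 CPM, with log2 fold changes of 1.28 ± 0.22 and 1.22 ± 0.43 (edgeR adjusted p = 9.8e-05 and 0.0416). Lig1 and Uhrf1 were higher by 1.21 ± 0.16 and 1.21 ± 0.19 (edgeR adjusted p = 5.7e-06 and 4.5e-05). Rpa2 had the lowest fold change of the members, at 67.6 ± 7.29 against 77.0 ± 4.88 CPM (log2 fold change -0.074 ± 0.11, edgeR adjusted p = 0.664). In cells of 3000 to 6000 UMIs 1 member, Lig1, was higher (5.43% of all genes) and 1, Rpa2, lower (3.18%). The median log2 fold change there was 0.018. With cells thinned to 2000 UMIs it was 13 higher of 31 (6.77%), with a median of 0.49. When cells of more than 1 gate were left out, 10 were higher (11.1%), with a median of 0.56. Of all genes called in either direction, the share called higher went from 58.0% to 43.0% with library size in place of TMM.

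In the Gzma gate 26 of 38 members were higher than in the rest, where 8.74% of all genes were, and 0 were lower (0 at an unadjusted p under 0.05, 0 by DESeq2), where 7.34% of all genes were. The median member differed by 0.49 on the log2 scale, against a median of 0.00 over all genes, and 19 members had no overlap with the rest and lay above it, against 8.22% of all genes. Rrm2 stood at 60.3, 106, 62.1 and 48.1 CPM, above the rest in all 4 libraries, with a log2 fold change of 0.85 ± 0.19 (edgeR adjusted p = 0.00266). Uhrf1 stood at 18.2, 40.5, 24.0 and 19.0 CPM, a log2 fold change of 0.88 ± 0.19 (edgeR adjusted p = 0.00169). In both, library 2 was high, and the other 3 libraries lay nearer the rest. Mcm3 at 71.5, 111, 76.3 and 47.0 CPM and Tyms, the thymidylate synthase, at 44.3, 74.4, 54.1 and 37.0 CPM were likewise highest in library 2, and Mcm3 in library 4 lay within the rest (log2 fold changes 0.69 ± 0.14 and 0.68 ± 0.14, edgeR adjusted p = 0.000907 and 0.00150). Chaf1a and Gins2 were higher by 0.79 ± 0.24 and 0.68 ± 0.20 (edgeR adjusted p = 0.0226 and 0.0244). Rpa1 was higher more evenly, at 138, 156, 158 and 151 CPM against 111, 116, 117 and 111 CPM, with a log2 fold change of 0.39 ± 0.067 (edgeR adjusted p = 0.000203).

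By role, 7 of 10 helicase and licensing genes, all 5 genes of histone supply and chromatin, 4 of 5 of nucleotide supply and uracil repair, 4 of 6 of the clamp and its loader, 3 of 4 of single-strand binding and fork protection, and Fen1 and Lig1 of lagging-strand maturation were higher. Of the 4 polymerase and primase genes 1 was, Pola1, and Ccne1 and Ccne2 stood at 4.69 ± 2.33 and 1.73 ± 1.37 CPM without passing. Ung, which removes uracil from DNA, stood at 11.4 ± 3.64 against 13.3 ± 1.05 CPM. Without library 2 the count of members higher was 13 of 36. With any 1 library left out, 587 to 708 of all genes were higher. In cells of 3000 to 6000 UMIs 6 of 29 members were higher (7.67% of all genes), namely Dut, Mcm4, Mcm6, Rpa1, Rpa2 and Slbp, and among cells of more than 6000 UMIs 11 of 37 (2.98%). The summed level of Cd8a and Cd8b1, markers of CD8 T cells, was 117 ± 75.1 CPM here, 54.1 to 215 over the libraries, against 19.7 ± 6.11 CPM in the rest (13.4 to 27.1). The gamma-delta list stood at 157 ± 49.9 CPM (102 to 210.4) against 69.8 ± 15.1 CPM, with Trdv4 at 0 and Trdc under 20 CPM. Their part in the result was not tested.

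In the Ifng gate, the largest after the rest, 12 members were higher than in the rest, where 5.63% of all genes were, and 0 lower (0 at an unadjusted p under 0.05, 0 by DESeq2), where 5.24% were. The median member differed by 0.30 on the log2 scale, against 0.00 over all genes, and 37 of 38 had a value above 0. In 17 the 4 Ifng sums lay above all sums of the rest, against 7.68% of all genes. The differences were small. Rpa2 stood at 80.3, 76.9, 80.8 and 70.2 against 56.2, 56.0, 62.7 and 55.6 CPM, a log2 fold change of 0.40 ± 0.067 with no overlap (edgeR adjusted p = 0.000189). Mcm5 at 54.2, 45.6, 41.7 and 47.6 CPM, Uhrf1 at 24.1, 21.1, 18.5 and 23.1 CPM and Rrm2 at 80.4, 58.6, 40.3 and 56.2 CPM were higher by 0.46 ± 0.097, 0.66 ± 0.14 and 0.61 ± 0.15 (edgeR adjusted p = 0.00249, 0.00171 and 0.00713). For Rrm2 the libraries of the gate and of the rest overlapped. Prim1 and the flap nuclease gene Fen1 were higher by 0.36 ± 0.11 and 0.35 ± 0.11 (edgeR adjusted p = 0.0359 and 0.0339), and Pcna by 0.31 ± 0.089 (edgeR adjusted p = 0.0268). Mcm6, at 109 ± 9.59 CPM, did not pass (edgeR adjusted p = 0.0672). By DESeq2 8 members were called higher, where 539 of all genes were. With 1 library left out it was 5 to 14 members, where 330 to 441 of all genes were higher. Without the library block 1 member was called, and nothing is read from that count. When cells of 3000 to 6000 UMIs were taken alone, Mcm4, Mcm6, Pcna and Rpa2 were called (5.73% of all genes), and among cells of more than 6000 UMIs 0 of 37 were (edgeR; 1 at an unadjusted p under 0.05), where 2.6% of all genes were. Rpa2 was the 1 member called when cells that met more than 1 gate were left out (2.87% of all genes), and the 1 called of 31 with gates on thinned UMIs (4.91%). The gamma-delta list stood at 115 ± 42.2 CPM (63.5 to 167) and overlapped the rest, and its part was not tested.

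In the Foxp3 gate few members passed. Against the rest 3 members were higher, Lig1, Mcm3 and Tyms, where 18.9% of all genes were, and 1 lower, Rpa2, where 14.9% were. Both shares of the members were below those of all genes. The median member differed by 0.11 on the log2 scale, against -0.01 over all genes. 2 members had all Foxp3 sums above the rest and 1 had all below, against 14.2% and 15.3% of all genes. Lig1 stood at 80.9, 111, 89.7 and 90.3 CPM in the Foxp3 gate and 35.4, 41.5, 33.6 and 35.1 CPM in the rest. The groups did not overlap, and the log2 fold change was 1.39 ± 0.12 (edgeR adjusted p = 6.3e-09). The mean of 93.0 ± 12.8 CPM was close to the 94.8 ± 10.9 CPM of the Il17a gate, where most other members were called as well. Mcm3, at 71.1, 69.1, 52.0 and 66.2 CPM, was higher by 0.49 ± 0.13 and overlapped the rest, and Tyms, at 51.7, 41.7, 36.7 and 47.2 against 33.3, 30.4, 30.9 and 35.3 CPM, was higher by 0.49 ± 0.14 (edgeR adjusted p = 0.00664 and 0.00954). Rpa2 stood at 46.8, 42.5, 38.1 and 50.8 against 56.2, 56.0, 62.7 and 55.6 CPM, a log2 fold change of -0.34 ± 0.094 with no overlap (edgeR adjusted p = 0.00696). Pcna, at 81.5 ± 16.7 against 79.2 ± 5.38 CPM, and Mcm6, at 102 ± 16.0 against 87.6 ± 5.47 CPM, did not pass.

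Lig1 in the Foxp3 gate was found outside cells with many members. Among cells with 0 to 2 other members at 2000 UMIs, 10.7%, 18.3%, 12.2% and 13.3% of the Foxp3 gate held a Lig1 UMI, a mean of 13.6% ± 3.29 (SD, n = 4 libraries, 1126 cells). The mean was 3.85% ± 0.492 in the rest, 3.43% ± 0.730 in the Ifng gate, 4.33% ± 0.627 in the Gzma gate and 4.14% ± 3.05 in the Il17a gate. The 4 Foxp3 values lay above those of every other gate. Over these cells Lig1 stood at 79.0 ± 19.5 CPM in the Foxp3 gate against 20.4 ± 3.03 CPM in the rest. Rpa2, in cells with 0 to 2 members other than itself, had the lower mean in the Foxp3 gate. It was detected in 6.72% ± 1.62 of the Foxp3 gate and 9.33% ± 0.378 of the rest. The groups overlapped, with 8.99% in the Foxp3 gate of library 4 and 8.86% in the rest of library 1. These values describe the cells, with no test. Lig1 overlaps Zswim9 on the other strand, which stood at 4.29 ± 0.982 CPM in the Foxp3 gate and 3.12 ± 0.809 CPM in the rest.

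Within windows of UMI count more members were lower in the Foxp3 gate. With each cell thinned to 2000 UMIs and gates on all UMIs, 3 of 31 were lower, with a median log2 fold change of -0.12. That is below the share of all genes lower, whose count is given below, and nothing is read from it. With gates on thinned UMIs too, 8 of 31 were lower, with a median of -0.40, and the count over all genes is also given below. Among cells of 3000 to 6000 UMIs 1 of 29 members, Lig1, was higher (18.1% of all genes; log2 fold change 1.94), and 12 were lower (15% of all genes): Mcm2, Mcm4, Mcm5, Mcm7, Hells, Uhrf1, Prim1, Rfc4, Rfc5, Rpa2, Rrm1 and Tipin. Mcm3 and Tyms stood at -0.056 and 0.14 there. Among cells of more than 6000 UMIs 0 were higher (edgeR; 0 at an unadjusted p under 0.05, against 8.5% of all genes called higher) and 11 of 37 lower (5.29% of all genes). Mcm3 and Tyms were then at -0.33 and -0.43, and Lig1 at 0.25 on the log2 scale. Lig1 was thus no longer called among the largest cells. The marker list of epithelial cells stood at 98.0 ± 11 CPM in the Foxp3 gate, mostly Epcam, with Krt20 at 0 and Krt8, Krt18 and Fabp2 under 20 CPM, against 17.4 ± 2.72 CPM in the rest. The B cell list stood at 41.4 ± 3.21 CPM against 10.3 ± 1.34 CPM, mostly Cd79b, with Ms4a1 at 0, and the myeloid list at 489 ± 47.8 CPM against 339.6 ± 41.7 CPM, with Lyz2, Itgax and Csf1r under 20 CPM. Their part in these results was not tested.

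**Figure D5:**
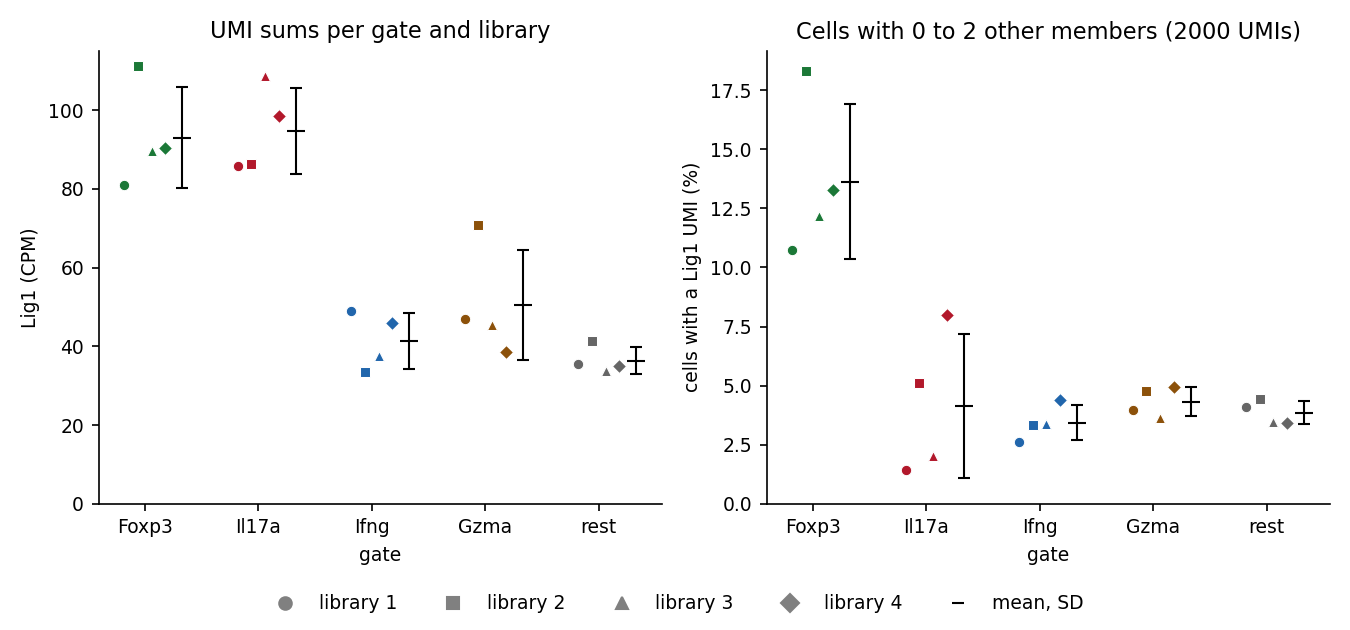
Lig1 by gate: left, CPM of the UMI sums per library; right, percent of cells with at least 1 Lig1 UMI among cells with 0 to 2 other replication genes, each thinned to 2000 UMIs. Points are the 4 libraries and bars the mean and SD; in the right panel the Foxp3 gate stands above every other gate, and in the left panel the Il17a gate is as high.

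Other genes of the cell cycle were followed in the same fits. Of 23 mitotic genes, all 23 were higher in the Il17a gate than in the rest (median log2 fold change 2.02), 20 in the Gzma gate (1.32), 20 in the Ifng gate (0.89) and 17 in the Foxp3 gate (0.82). The medians over all genes were near 0, as given above. The background for each list in these fits is the share of all genes called higher, 15.6% in the Il17a, 8.74% in the Gzma, 5.63% in the Ifng and 18.9% in the Foxp3 gate, or called lower, 10.7%, 7.34%, 5.24% and 14.9% in the same order. In the Foxp3 gate Aurkb, a mitotic kinase, stood at 13.7 ± 4.79 against 6.36 ± 1.43 CPM, a log2 fold change of 1.14 ± 0.23 (edgeR adjusted p = 0.000404). Mki67, the proliferation marker, rose in all 4 gates: by 0.73 ± 0.16 in the Foxp3, 1.80 ± 0.18 in the Il17a, 0.89 ± 0.13 in the Ifng and 1.07 ± 0.16 in the Gzma gate (edgeR adjusted p = 0.00110, 1e-07, 2.8e-05 and 4.5e-05). In this fit on all cells the mitotic genes were thus called in the Foxp3 gate where most replication genes were not. Cells of 10000 or more UMIs made up 11.3% of the Foxp3 gate against 2.30% of the rest. The part of cell depth in the mitotic calls was not tested. The share of cells with 3 or more mitotic genes at 2000 UMIs was 11.5% ± 2.65 in the Il17a gate, 4.38% ± 1.32 in the Gzma gate, 3.37% ± 1.03 in the Foxp3 gate, 3.25% ± 0.850 in the Ifng gate and 1.52% ± 0.199 in the rest.

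Of 33 replication genes outside the members, 12 were higher and 1 lower in the Il17a gate than in the rest (median log2 fold change 0.47). In the Gzma gate 6 were higher (0.21), in the Ifng gate 4 (0.13), and in the Foxp3 gate 4 were higher and 6 lower (0.045). The counts in the Foxp3 gate are near or below the 18.9% and 14.9% of all genes called there, and nothing is read from them. Mcm10, which helps to start the helicase, stood at 7.97 ± 1.54 CPM in the Il17a gate against 1.08 ± 0.193 CPM in the rest (2.85 ± 0.35 on the log2 scale, edgeR adjusted p = 2.1e-06). Clspn, a checkpoint mediator at the fork, was higher by 1.52 ± 0.19 in the Il17a, 1.18 ± 0.16 in the Gzma and 0.75 ± 0.12 in the Ifng gate (edgeR adjusted p = 2.5e-06, 1.2e-05 and 0.00014). In the Foxp3 gate Pold4, the small subunit of polymerase delta, was higher, at 131 ± 8.02 against 71.9 ± 3.10 CPM (log2 fold change 0.90 ± 0.060, edgeR adjusted p = 5.9e-11), and Pole4, Pold2 and the S-phase kinase gene Cdc7 were lower, with log2 fold changes of -0.28 ± 0.059, -0.35 ± 0.081 and -0.89 ± 0.24 (edgeR adjusted p = 0.000596, 0.00176 and 0.00549). Pold4 and Lig1 were both higher in that gate.

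Of 17 further genes of nucleotide supply, 6 were higher and 1 lower in the Il17a gate, 5 and 2 in the Foxp3 gate, and 2 were higher in the Gzma and 2 in the Ifng gate (median log2 fold changes 0.23, 0.14, 0.050 and 0.01 in that order). Tk1, the thymidine kinase of S phase, was higher by 2.14 ± 0.22, 1.12 ± 0.21, 0.58 ± 0.16 and 0.96 ± 0.20 in the Il17a, Gzma, Ifng and Foxp3 gates (edgeR adjusted p = 1.5e-07, 0.000487, 0.0167 and 0.000706). Samhd1, which breaks dNTPs down, was higher in the Foxp3 gate, at 255 ± 24.8 against 127 ± 5.63 CPM (1.04 ± 0.070 on the log2 scale, edgeR adjusted p = 6.6e-11). Of 14 histone genes 13 were higher in the Il17a gate, 7 in the Gzma gate, and 2 in the Ifng and 2 in the Foxp3 gate (medians 1.75, 0.66, 0.28 and 0.25). Most mRNAs of S-phase histones end in a stem-loop that Slbp binds. H2afz, a histone variant made outside S phase too, was higher by 1.62 ± 0.10 in the Foxp3 gate (edgeR adjusted p = 2.9e-11). Of 22 E2F factors and targets 12 were higher in the Il17a, 7 in the Gzma, 5 in the Ifng and 2 in the Foxp3 gate, where 2 were lower, Atad2 and Cdc25a. Ccna2, the cyclin of S and G2 phase, was higher by 2.46 ± 0.23, 1.40 ± 0.23, 1.01 ± 0.17 and 1.05 ± 0.23 in the same order of gates (edgeR adjusted p = 7.6e-08, 0.000131, 0.000279 and 0.00106).

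Some genes that let cells into the cycle or hold them back were called between gates. The cyclin genes Ccnd2 and Ccnd3, which act in G1, were lower in the Il17a gate, with log2 fold changes of -0.89 ± 0.089 and -0.44 ± 0.066 (edgeR adjusted p = 1.4e-07 and 2.6e-05), and Cdk6, their kinase partner, was higher by 0.59 ± 0.093 (edgeR adjusted p = 4.5e-05). Cdkn1a, an inhibitor of cyclin-dependent kinases, was higher in the Foxp3, Il17a, Ifng and Gzma gates, by 0.58 ± 0.074, 0.60 ± 0.083, 0.86 ± 0.069 and 0.81 ± 0.074 (edgeR adjusted p = 1.4e-06, 1.2e-05, 1.4e-08 and 5.7e-08). It stood at 289 ± 90.8 CPM in the Ifng gate and 156 ± 45.7 CPM in the rest. Of 15 activation genes 10 were higher and 2 lower in the Foxp3 gate, 8 and 1 in the Il17a gate, and 3 and 1 in both the Gzma and the Ifng gate. Of 7 genes of naive and recirculating cells 7 were lower in the Gzma, 6 in the Ifng, 4 in the Il17a and 4 in the Foxp3 gate. Of 19 genes of cell cycle entry and brakes 4 were higher and 4 lower in the Il17a gate, 4 and 4 in the Foxp3 gate, and 10 were higher in the Ifng and 8 in the Gzma gate. In the Il17a and Foxp3 gates these counts were close to the shares of all genes called. The part of cell depth in these counts was not tested.

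Cells of all gates together were then sorted by the number of members they held at 2000 UMIs. These cells were chosen by the members, so the values, in CPM of the thinned UMIs, are a description, and the genes named were chosen after their values were seen. From cells with 0 to 2 members to cells with 8 or more, the 23 mitotic genes went from 161 ± 18.2 to 2754 ± 93.3 CPM (SD, n = 4 libraries), and the E2F factors and targets from 397 ± 5.30 to 2009 ± 93.9 CPM. Ccna2 went from 1.15 ± 0.641 to 211 ± 9.95 CPM, Tk1 from 1.00 ± 0.477 to 181 ± 17.7 CPM, and Clspn from 5.12 ± 1.09 to 157 ± 26.0 CPM. The linker histone gene Hist1h1b went from 2.19 ± 0.573 to 268 ± 53.6 CPM. Genes of the replication machinery that differed little or were lower included the origin recognition gene Orc4, at 42.0 ± 3.65 and 40.6 ± 8.85 CPM, and Pold4, at 79.5 ± 2.83 and 53.8 ± 5.65 CPM.

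Genes that hold the cycle back lay both ways. Btg1 and Btg2, which hold cells back from dividing, went from 2793 ± 181 to 1107 ± 128 CPM and from 747 ± 67.3 to 345 ± 64.4 CPM, and the kinase inhibitor gene Cdkn1b from 163 ± 7.87 to 57.6 ± 16.2 CPM. The inhibitor genes Cdkn2c, Cdkn2a and Cdkn2d went up, from 15.4 ± 1.87 to 81.2 ± 3.17 CPM, from 1.77 ± 0.520 to 22.8 ± 5.05 CPM and from 42.1 ± 4.39 to 68.5 ± 6.09 CPM, and so did Rbl1, of the retinoblastoma family, from 19.1 ± 1.77 to 55.4 ± 12.7 CPM. Cdkn1a, at 232 ± 74.8 and 218 ± 45.4 CPM, Rb1, at 29.4 ± 1.31 and 38.2 ± 11.7 CPM, and Trp53, at 100.2 ± 8.6 and 133 ± 29.5 CPM, differed less. Of the genes of naive and recirculating cells all had a lower mean in the cells with 8 or more members. The interleukin 7 receptor gene Il7r went from 548 ± 67.3 to 167 ± 36.3 CPM and Tcf7, a factor of memory and naive cells, from 129 ± 14.1 to 58.9 ± 9.55 CPM. Activation genes together stood at 4540.2 ± 652 and 3597 ± 308 CPM. Of the cells with 8 or more members 44.8% also held 3 or more mitotic genes, against 6.83% of cells with 5 to 7 members and 0.837% of cells with 0 to 2. By gate that share among cells with 8 or more members was 58.7% of 63 in the Il17a gate, 54.5% of 44 in the Foxp3 gate, 47.9% of 71 in the Gzma gate, 43.2% of 229 in the Ifng gate and 39.6% of 225 in the rest.

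Most marker lists of other cell types were no higher in the cells with the most members. In cells with 8 or more members the plasma cell list stood at 52.2 ± 15.1 CPM against 221 ± 87.5 CPM in cells with 0 to 2, the myeloid list at 179 ± 14.7 against 301 ± 51.2 CPM, the B cell list at 6.51 ± 1.29 against 11.5 ± 1.56 CPM and the epithelial list at 12.0 ± 4.67 against 26.6 ± 4.65 CPM. The CD8 T cell list stood at 30.0 ± 37.6 against 30.9 ± 17.4 CPM. The T cell list stood at 3992 ± 60.1 against 5226 ± 123 CPM. Of 1024 cells removed as doublets, which had a median of 7039 UMIs, 8.40% held 5 or more members at 2000 UMIs. The share was 8.76% in the cells analysed, at a median of 3899.5 UMIs, and 16.3% ± 2.28 in those of 6000 to 9999 UMIs. The median doublet score was 0.087 in analysed cells with 8 or more members and 0.071 in those with 0 to 2. The part of doublets was not tested. None of the 27 Cd74-rich cells without T cell transcripts held 5 or more (95% Wilson upper limit 12.5%, for counting error only, median 7818 UMIs).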

How the data were processed

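CD4+ T cells from the lamina propria of the small intestine were profiled as 4 libraries of 1 group by 10x single-cell RNA sequencing. The deposited values are whole-number counts of UMIs per gene and cell, made with Cell Ranger 3.0.2 on mm10 per the submitters' processing notes; further steps of the authors are not given in the sources used here. Cells were kept if they had 500 or more genes, 1000 or more UMIs and no more than 10% of UMIs from mitochondrial genes, and the highest Scrublet scores (scanpy 1.11.5) were removed as doublets, 0.8% per 1000 barcodes. Total counts per library were 23918884 to 28783972 UMIs, and 9693 genes were tested.

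Counts were summed per library and gate and compared with edgeR 4.0.16 (limma 3.58.1, R 4.3.3): quasi-likelihood test, TMM scaling, filterByExpr, library as a block, all 20 sums in 1 fit, Benjamini-Hochberg adjustment at 0.05 over all genes tested. The 4 gate genes were left out. SE is the log2 fold change divided by the root of the F statistic. CPM are scaled to the total UMIs of a sum, without TMM. DESeq2 1.42.0 was an alternative, beside other scalings, filters, depths, gates and left-out libraries. On counts simulated for the Il17a gate against the rest over 9447 genes, the test recovered 50.0%, 72.3% and 96.9% of genes changed 1.5-fold, 2-fold and 4-fold, and called 0.119% of unchanged genes. The simulated counts held no effect of library or of cell depth between gates, so these rates do not cover errors from either.

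The members, gene lists and tests were chosen with earlier results of these data known. Members named per comparison are up to 6 in each direction with the largest log2 fold change among those called and changed alike in all 4 libraries, and the member with the highest CPM of each role group; of other lists, up to 4 called genes with the smallest adjusted p. Mcm5 in the Il17a gate, Mcm6, Ung, Pole, Ccne2 and the members listed at other depths were named after their values were seen. A gene that this rule names and a marker list are not reported here. Exact tests planned for the share of cells with 5 or more members are not printed, because that share is a score over these members. Sequences are from RefSeq GRCm38.p6, matched by symbol.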

Additional observations from a re-analysis of the deposited data

Results flagged for a closer look

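Groups of 4 libraries were examined for a single library far from the others, relative to the range of the group, and 11 of 145 such groups held one. Chance flags about 1 in 20 groups. Library 2 was far from the others in 6 of them. The share of cells with 5 or more members in library 2 was 9.42% against 8.5 to 8.57% in the other 3 libraries over all cells, and 8.29% against 6.87 to 7.04% in the other 3 libraries in the rest. In the Gzma gate Cdc6 in library 2 stood at 11.1 CPM against 2.64 to 3.74 CPM in the other 3 libraries, and Chaf1a at 19.7 CPM against 9.23 to 10.7 CPM in the other 3 libraries. In the Il17a gate Slbp in library 2 stood at 259 CPM against 195 to 200.1 CPM in the other 3 libraries, and Uhrf1 at 58.4 CPM against 45.4 to 47.2 CPM in the other 3 libraries.

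Library 3 was far from the others for Prim1 over all cells, at 15.5 CPM against 18.4 to 18.8 CPM in the other 3 libraries, for Rpa1 in the Ifng gate, at 134 CPM against 119 to 121 CPM in the other 3 libraries, and for Rpa2 in the rest, at 62.7 CPM against 55.6 to 56.2 CPM in the other 3 libraries. Library 1 was far from the others for Dut in the rest, at 119.8 CPM against 106 to 108 CPM in the other 3 libraries, and library 4 for Rpa3 over all cells, at 65.7 CPM against 60.9 to 61.2 CPM in the other 3 libraries. The part of these libraries in the gate comparisons is given by the values without each of them.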

How the results depend on the processing

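The counts of members higher in the Il17a and Gzma gates, and of the Il17a against the Ifng gate, stayed within 1.5 times their values with library size alone, DESeq2, no filter on low counts, no doublet removal and a stricter mitochondrial limit, and moved most with the depth of the cells. With no filter on low counts, members higher numbered 5 and 21 for the Foxp3 gate and the Ifng gate. All genes lower numbered 1567, 766 and 1150 for the Il17a gate, the Ifng gate and the Gzma gate. With cells thinned to 2000 UMIs and gates on all UMIs, members higher numbered 1, 15, 7, 12 and 13 for the Foxp3 gate, the Il17a gate, the Ifng gate, the Gzma gate and the Il17a gate against the Ifng gate. Members lower numbered 3 and 1 for the Foxp3 gate and the Gzma gate. All genes higher numbered 1189, 523, 549 and 540 for the Foxp3 gate, the Il17a gate, the Gzma gate and the Il17a gate against the Ifng gate. All genes lower numbered 936, 279 and 353 for the Foxp3 gate, the Il17a gate and the Il17a gate against the Ifng gate. With gates on the thinned UMIs as well, members higher numbered 1, 12, 1, 7 and 12 for the Foxp3 gate, the Il17a gate, the Ifng gate, the Gzma gate and the Il17a gate against the Ifng gate. Members lower numbered 8 and 2 for the Foxp3 gate and the Gzma gate. All genes higher numbered 966, 419, 529 and 485 for the Foxp3 gate, the Il17a gate, the Gzma gate and the Il17a gate against the Ifng gate. All genes lower numbered 757, 234 and 319 for the Foxp3 gate, the Il17a gate and the Il17a gate against the Ifng gate. Among cells of 3000 to 6000 UMIs, members higher numbered 1, 2, 4, 6 and 1 for the Foxp3 gate, the Il17a gate, the Ifng gate, the Gzma gate and the Il17a gate against the Ifng gate. Members lower numbered 12 and 1 for the Foxp3 gate and the Il17a gate against the Ifng gate. All genes higher numbered 381 and 456 for the Il17a gate and the Il17a gate against the Ifng gate. All genes lower numbered 168 and 267 for the Il17a gate and the Il17a gate against the Ifng gate. Among cells of more than 6000 UMIs, a setting chosen after seeing the data, members higher numbered 0, 6, 0, 11 and 10 for the Foxp3 gate, the Il17a gate, the Ifng gate, the Gzma gate and the Il17a gate against the Ifng gate. Members lower numbered 11 for the Foxp3 gate. All genes higher numbered 756, 383, 231, 265 and 725 for the Foxp3 gate, the Il17a gate, the Ifng gate, the Gzma gate and the Il17a gate against the Ifng gate. All genes lower numbered 470, 215, 209, 237 and 484 for the Foxp3 gate, the Il17a gate, the Ifng gate, the Gzma gate and the Il17a gate against the Ifng gate. With cells of 1 gate only, members higher numbered 1, 16, 1 and 10 for the Foxp3 gate, the Il17a gate, the Ifng gate and the Il17a gate against the Ifng gate. All genes higher numbered 986 and 272 for the Il17a gate and the Ifng gate. All genes lower numbered 591 and 309 for the Il17a gate and the Ifng gate. The log2 fold change turned to -0.056 for Mcm3 in the Foxp3 gate and -0.50 for Rrm2 in the Il17a gate against the Ifng gate among cells of 3000 to 6000 UMIs. The log2 fold change turned to -0.33 for Mcm3 in the Foxp3 gate, -0.43 for Tyms in the Foxp3 gate and -0.072 for Rrm2 in the Ifng gate among cells of more than 6000 UMIs. The log2 fold change turned to -0.17 for Tyms in the Foxp3 gate, -0.066 for Rrm2 in the Ifng gate, -0.036 for Mcm5 in the Ifng gate and -0.071 for Gins2 in the Gzma gate with gates on thinned UMIs. Of the fold changes of named members recomputed under the alternatives, 50 of 64 kept their direction and side of the threshold for the Foxp3 gate, 71 of 92 for the Gzma gate, 57 of 96 for the Ifng gate, 81 of 92 for the Il17a gate against the Ifng gate and 83 of 89 for the Il17a gate. The cause of these changes was not tested. The depth windows and the thinning also leave fewer cells, UMIs and genes. Genes tested numbered 7973 with cells thinned and gates on all UMIs, and 7583 with gates on thinned UMIs. They numbered 8391 for cells of 3000 to 6000 UMIs, 8892 above 6000 UMIs and 9461 for cells of 1 gate only. Members tested numbered 31, 31, 29, 37 and 37 in the same order. Only counts that moved by over 1.5 times are listed. A count of members near the share of all genes is not read as a result.

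Shares of cells with many members are given next for the Foxp3, Il17a, Ifng and Gzma gates, the rest and all cells, in that order. They were 28.6%, 41.8%, 38.4%, 42.3%, 33.3% and 35.5% at a cut of 3 members. The shares were 2.94%, 11.1%, 3.55%, 4.25%, 2.12% and 3.04% at a cut of 8. They were 2.86%, 10.4%, 3.49%, 4.2%, 2.24% and 3.04% at a cut of 5 members in cells thinned to 1000 UMIs. The shares were 15.9%, 31.0%, 22.9%, 27.7%, 18.3% and 20.6% when thinned to 3000 UMIs. They were 37.6%, 51.0%, 40.2%, 37.5%, 30.8% and 35.2% without thinning. The shares were 2.75%, 10.1%, 7.13%, 6.71%, 5.28% and 5.89% for cells of 3000 to 6000 UMIs. They were 14.9%, 34.3%, 25.0%, 37.9%, 24.3% and 24.7% for cells of more than 6000 UMIs. There were 14.8% in the Il17a gate, 9.49% in the Ifng gate and 8.25% in all cells for cells of 1 gate only. There were 8.98% in the Ifng gate and 8.37% in the rest with gates on thinned UMIs. The Il17a gate had the highest mean at each cut and depth named, except that the Gzma gate was higher at a cut of 3 members and among cells of more than 6000 UMIs. A second random draw of the thinning moved no share by more than its SD. The summed level of the members was 1334 CPM when cells were thinned to 2000 UMIs, since large cells then count less.

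With 1 library left out in turn, there were 2 to 4 members higher for the Foxp3 gate, 0 to 2 members lower for the Foxp3 gate, 29 to 33 members higher for the Il17a gate, 5 to 14 members higher for the Ifng gate, 13 to 27 members higher for the Gzma gate and 22 to 30 members higher for the Il17a gate against the Ifng gate, and 330 to 441 of all genes higher for the Ifng gate. The counts that moved by over 1.5 times were 0 members lower for the Foxp3 gate without library 3, 2 members lower for the Foxp3 gate without library 4, 5 members higher for the Ifng gate without library 1, 355 all genes higher for the Ifng gate without library 1, 330 all genes higher for the Ifng gate without library 2, 6 members higher for the Ifng gate without library 3, 6 members higher for the Ifng gate without library 4 and 13 members higher for the Gzma gate without library 2. With 1 library left out, all genes higher numbered 1465 to 1652 for the Foxp3, 1054 to 1268 for the Il17a and 587 to 708 for the Gzma gate. For the Il17a against the Ifng gate they numbered 1068 to 1269. All genes lower numbered 1165 to 1331 for the Foxp3 gate. The same library gave a sum to every gate, so library was the block of the main fit. With no replicate block, 1 member was higher for the Ifng gate, and all genes numbered 203 higher and 185 lower there and 522 higher and 460 lower for the Gzma gate. Counts of the other comparisons stayed within 1.5 times without the block. Depth limits the low members: a cell thinned to 2000 UMIs holds few UMIs of any member, and Cdc6, Gins1 and Ccne2 rest on small counts in the Il17a gate.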

Other observations

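In the Foxp3 gate, the 4 genes of the activation list with the smallest adjusted p were all higher than in the rest. Whether they mark activation there, or regulatory T cells as such, was not tested. Il2ra, a receptor chain for interleukin 2, stood at 101 ± 22.8 against 18.0 ± 0.876 CPM (SD, n = 4 libraries), a log2 fold change of 2.51 ± 0.11 (edgeR adjusted p = 5.2e-14). Tnfrsf4, Tnfrsf9 and Tnfrsf18, receptors of the TNF family, had log2 fold changes of 2.60 ± 0.12, 3.44 ± 0.14 and 1.86 ± 0.079 (edgeR adjusted p = 1e-13, 1.7e-14 and 2.8e-14).

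In the Il17a gate Gmnn and Orc6, both among the replication genes outside the members, were higher by 0.98 ± 0.13 and 0.82 ± 0.12 on the log2 scale (edgeR adjusted p = 9.2e-06 and 2.7e-05). Gmnn was also higher in the Gzma and Ifng gates, by 0.64 ± 0.11 and 0.34 ± 0.085 (edgeR adjusted p = 0.000281 and 0.00966). Dnmt1, the enzyme that copies DNA methylation onto new strands, was higher by 0.64 ± 0.074, 0.42 ± 0.062 and 0.21 ± 0.050 in the Il17a, Gzma and Ifng gates (edgeR adjusted p = 8.4e-07, 3.3e-05 and 0.00808).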
